A study of Homo sapiens with 24 samples.

Results

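A set of 9 RNA-binding proteins reported as components of paraspeckles, outside the SFPQ, NONO and PSPC1 family itself, was followed at the RNA level across 6 liver cancer cell lines in which SFPQ was knocked down. The 9 members were EWSR1, TAF15, RBM14, RBM7, HNRNPK, HNRNPH3, DAZAP1, CPSF6 and NUDT21. They were taken by name and not by a cut on their values, but with earlier results of these data known. They make up 9 of the 23284 rows of the expression table. All 9 were measured in all 24 libraries and all 9 passed the filter on low values in every comparison.

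RNA sequencing of polyadenylated RNA was done in 4 groups of 6 libraries, 1 library per line: siRNA against SFPQ with TGF-beta, siRNA against SFPQ alone, control siRNA with TGF-beta, and control siRNA alone. The lines were HLE, SK-HEP1, Hep3b, HepG2, Huh1 and Huh7, all labelled hepatocellular carcinoma (HCC) and grown in medium with serum. The control siRNA libraries carry the genotype label wild type and the others SFPQ knockdown. TGF-beta was given at 2 ng per ml for 24 hours. The groups are written below as siSFPQ + TGF-beta, siSFPQ, siCTL + TGF-beta and siCTL. The labels name neither the siRNA sequences nor separate cultures of a line, so the lines served as replicates, and the p-values measure the spread between lines.

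Levels are FPKM, fragment numbers corrected for transcript length and for library size, as the authors deposited them. A change is a difference of log2(FPKM + 1) between paired libraries of a line, averaged over the 6 lines, with its standard error (SE), and it slightly understates the change of low genes. A call is a Benjamini-Hochberg adjusted p under 0.05 from limma, fitted over all genes tested with the line as a block. In bulk RNA, fewer cells of a kind and less RNA per cell cannot be told apart.

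Paraspeckles are nuclear bodies that form on the long noncoding RNA NEAT1. SFPQ, NONO and PSPC1, the DBHS proteins, coat NEAT1, and many further RNA-binding proteins with low-complexity domains collect in the bodies and shape them. EWSR1 and TAF15 belong to the FET family, which couples transcription by RNA polymerase II to RNA processing. RBM14 is a coactivator and splicing regulator needed for paraspeckle assembly. RBM7 is the RNA-binding subunit of the nuclear exosome targeting (NEXT) complex, which hands noncoding transcripts to the exosome for decay. HNRNPK, HNRNPH3 and DAZAP1 are hnRNP-type proteins with roles in splicing and RNA export. CPSF6 and NUDT21 are the larger and the smaller subunit of cleavage factor Im, which binds UGUA elements upstream of poly(A) sites and sets which site is used; NUDT21 is its RNA-binding core.

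The start regions of the members that the results turn on are shown: EWSR1 fell after knockdown, RBM7 and HNRNPH3 rose, and CPSF6 and NUDT21 encode subunits of 1 factor. The sequences are from RefSeq on GRCh38.p14, in which promoter windows matched 8 of the 9 members, and each is the 250 bases before an annotated start, 5′ to 3′ on the gene's strand, so none holds transcribed bases of that start. EWSR1 lies on the plus strand at chr22:29268018-29268267, RBM7 on the plus strand at chr11:114400416-114400665, HNRNPH3 on the plus strand at chr10:68331814-68332063, CPSF6 on the plus strand at chr12:69239319-69239568 and NUDT21 on the minus strand at chr16:56451333-56451582. For HNRNPH3, which has 3 windows in the table, the window whose start lay near the most GENCODE transcript starts was used. Capitals mark matches to any of 6 motifs searched on both strands.
EWSR1: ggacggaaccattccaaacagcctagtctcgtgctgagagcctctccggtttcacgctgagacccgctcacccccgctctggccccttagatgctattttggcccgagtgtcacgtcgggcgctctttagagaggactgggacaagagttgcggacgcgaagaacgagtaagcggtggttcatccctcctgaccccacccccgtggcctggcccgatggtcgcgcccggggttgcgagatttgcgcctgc
RBM7: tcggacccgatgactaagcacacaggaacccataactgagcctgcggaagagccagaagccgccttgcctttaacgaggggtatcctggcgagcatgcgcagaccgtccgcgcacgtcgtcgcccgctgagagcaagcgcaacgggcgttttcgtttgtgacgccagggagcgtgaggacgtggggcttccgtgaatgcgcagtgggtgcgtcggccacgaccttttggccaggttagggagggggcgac
HNRNPH3: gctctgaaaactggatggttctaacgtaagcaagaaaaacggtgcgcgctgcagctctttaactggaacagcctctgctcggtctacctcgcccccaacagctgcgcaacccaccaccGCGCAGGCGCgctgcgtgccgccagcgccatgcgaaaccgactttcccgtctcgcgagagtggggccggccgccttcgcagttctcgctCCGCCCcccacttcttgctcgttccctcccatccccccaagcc
CPSF6: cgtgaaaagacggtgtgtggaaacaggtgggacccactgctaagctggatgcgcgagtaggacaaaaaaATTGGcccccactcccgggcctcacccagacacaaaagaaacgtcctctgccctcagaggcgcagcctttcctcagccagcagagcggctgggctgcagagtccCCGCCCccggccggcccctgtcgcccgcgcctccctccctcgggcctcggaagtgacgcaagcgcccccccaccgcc
NUDT21: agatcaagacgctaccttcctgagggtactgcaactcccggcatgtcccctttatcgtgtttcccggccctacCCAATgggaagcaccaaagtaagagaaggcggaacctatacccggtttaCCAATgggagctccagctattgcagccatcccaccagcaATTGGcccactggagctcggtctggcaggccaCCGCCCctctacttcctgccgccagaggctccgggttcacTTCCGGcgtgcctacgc
The motifs were the CCAAT box (CCAAT), the GC box (GGGCGG), an ETS motif (CCGGAA), the NRF1 motif, a YY1 motif (AAGATGG) and the TATA box (TATAAA). Of 35116 RefSeq windows of the same length, 32.0% held a CCAAT box, 42.6% a GC box, 14.5% the ETS motif, 5.07% the NRF1 motif, 3.7% the YY1 motif and 10.7% a TATA box. The windows of CPSF6 and NUDT21 both held CCAAT and a GC box. NUDT21 had 3 CCAAT boxes, at -177, -128 and -89 from the start, and the ETS motif at -17. HNRNPH3 held the NRF1 motif at -132, and RBM7 and EWSR1 held none of the 6 motifs in these letters. The windows were rich in G and C, with 59.6% in NUDT21, 62.8% in EWSR1, 63.6% in RBM7, 64% in HNRNPH3 and 66.8% in CPSF6. A match is a description of the letters and not a bound site.

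The libraries were first checked against their labels. SFPQ stood between 23.5 and 51.4 FPKM in siSFPQ and between 26.5 and 54.6 in siSFPQ + TGF-beta libraries, against 90.4 to 247 in siCTL and 84.7 to 248 in siCTL + TGF-beta libraries, with no overlap. The 9 hepatocyte markers checked summed to 13120 to 18970 FPKM in Huh7, 8482 to 12430 in HepG2 and 706 to 1176 in Huh1. They summed to 25.3 to 110 FPKM in HLE, 18.2 to 22.2 in SK-HEP1 and 12.5 to 23.4 in the libraries labelled Hep3b, where ALB did not exceed 0.951 FPKM, so a hepatocyte-like profile was near absent in the RNA of these 3 lines. For Hep3b, a line derived from liver tumour cells and known to make albumin, these markers go against the label. The identity of that line was not tested, and Hep3b below means the libraries so labelled. The 7 stellate and fibroblast markers checked summed to 104 to 182 FPKM in Hep3b, where 6 of them averaged at least 1 FPKM. Their sums were 139 to 319.5 in SK-HEP1 (4 of 7 markers) and 23.8 to 201 across Huh1, Huh7, HepG2 and HLE (3 or 4 of 7). Of 6 immune markers, 2 or 3 averaged at least 1 FPKM in each line, with LYZ at up to 588 FPKM in Huh7 and 743 in HepG2. None of the 6 endothelial markers averaged 1 FPKM in any line. Sequencing depth relative to the median library, read from low-level genes, lay between 0.353 and 1.741 and was lowest in the Huh7 siSFPQ + TGF-beta library.

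Knockdown of SFPQ moved 4 of the 9 members without TGF-beta and 5 of 9 with it. EWSR1 and TAF15 fell and RBM7 and HNRNPH3 rose in both comparisons, and CPSF6 also fell in the TGF-beta-treated cells. RBM14, HNRNPK, DAZAP1 and NUDT21 were not called in either. Over all genes tested, 15.0% were called lower and 6.69% higher without TGF-beta, against 2 of 9 members in each direction. With TGF-beta 21.8% of genes were called lower and 8.47% higher, against 3 and 2 of 9 members. The median change of the members was -0.21 without and -0.16 with TGF-beta, beside medians of -0.07 and -0.09 over all genes tested. The members were split, with changes between -0.80 and 0.66 without TGF-beta and between -0.99 and 0.57 with it.

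**Figure D1:**
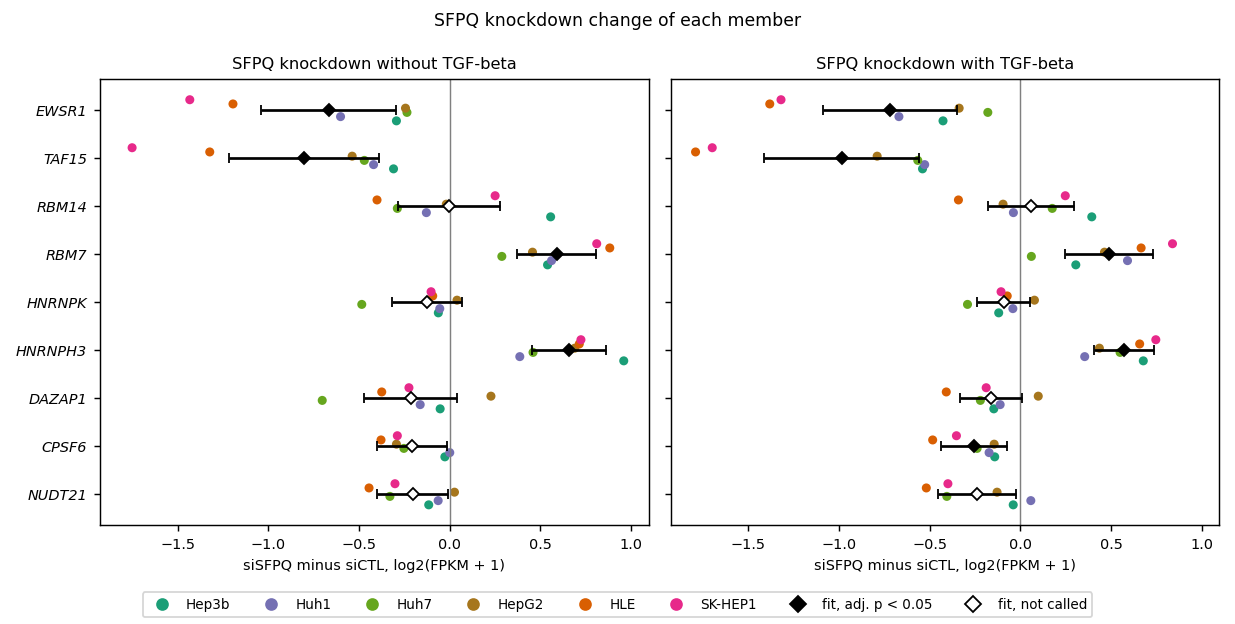
Change after SFPQ knockdown of each member, siSFPQ minus siCTL on the log2(FPKM + 1) scale, without TGF-beta (left) and with it (right). Dots are the 6 lines, diamonds the limma estimate with its 95% interval, filled where the adjusted p is under 0.05; EWSR1 and TAF15 lie below 0 and RBM7 and HNRNPH3 above 0 in 6 of 6 lines in both panels.

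EWSR1, a FET protein that binds RNA and the polymerase II machinery, fell in every line. Its siSFPQ libraries held 88.9 FPKM in Hep3b, 55.2 in Huh1, 112 in Huh7, 72.1 in HepG2, 86.0 in HLE and 50.6 in SK-HEP1. Its siCTL libraries held 109 FPKM in Hep3b, 84.4 in Huh1, 132 in Huh7, 85.6 in HepG2, 198 in HLE and 138 in SK-HEP1. Lines differ enough that the 2 groups overlap, yet each siSFPQ library lies below its own siCTL library, and HLE, the highest line under control siRNA, is among the middle lines after knockdown. The change was -0.67 (SE 0.17, 6 of 6 lines lower, limma adjusted p = 0.0223), with a 95% interval of -1.04 to -0.29.

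With TGF-beta EWSR1 was again lower in every line after knockdown. The siSFPQ + TGF-beta libraries held 86.8, 51.4, 98.4, 64.1, 75.2 and 49.3 FPKM in Hep3b, Huh1 and Huh7 and then HepG2, HLE and SK-HEP1. The siCTL + TGF-beta libraries held 117, 82.4, 112, 81.3, 198 and 125 FPKM in the same lines. Again each knockdown library is the lower one of its line and the groups overlap. The change was -0.72 (SE 0.17, 6 of 6 lines lower, limma adjusted p = 0.0137).

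TAF15, the second FET protein, a TBP-associated factor that binds RNA and DNA, fell further. The siSFPQ libraries held 80.9 FPKM in Hep3b, 53.7 in Huh1, 54.1 in Huh7, 36.0 in HepG2, 56.9 in HLE and 30.8 in SK-HEP1. The siCTL libraries held 101 FPKM in Hep3b, 72.1 in Huh1, 75.4 in Huh7, 52.7 in HepG2, 144 in HLE and 106 in SK-HEP1. HLE and SK-HEP1 are the highest lines under control siRNA, while after knockdown Hep3b is the highest and SK-HEP1 the lowest. The change was -0.80 (SE 0.19, 6 of 6 lines lower, limma adjusted p = 0.0176).

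In the TGF-beta-treated cells TAF15 had the largest change of the 9 members. The siSFPQ + TGF-beta libraries held 75.9, 44.8, 45.1, 26.9, 42.4 and 34.9 FPKM in Hep3b, Huh1 and Huh7 and then HepG2, HLE and SK-HEP1, against 111, 65.0, 67.2, 47.2, 149 and 116 in the siCTL + TGF-beta libraries. All but Hep3b of the knockdown libraries lie below the lowest control library, HepG2. The change was -0.99 (SE 0.19, 6 of 6 lines lower, limma adjusted p = 0.00761), which is 0.505 times the control level.

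The call of EWSR1 without TGF-beta depended on HLE and on SK-HEP1. Without HLE the EWSR1 change was -0.56 (adjusted p = 0.0602) and without SK-HEP1 it was -0.51 (adjusted p = 0.0524), neither past the threshold, while in the TGF-beta-treated cells the call held without any one line, with adjusted p between 0.0178 and 0.0386. TAF15 kept its call without any one line in both comparisons, and lost it without TGF-beta when Huh7 and HepG2, the lines with the shallowest libraries, were both left out (-0.95, adjusted p = 0.0521). Without the Hep3b libraries, whose hepatocyte markers were near absent, EWSR1 changed by -0.74 and TAF15 by -0.90 in the untreated cells (adjusted p = 0.0281 and 0.02). For both genes in both comparisons an exact sign-flip test of the line changes, two-sided, gave the smallest p that 6 lines allow.

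HNRNPH3, a small hnRNP of the H and F family with glycine-rich regions, rose in every line. The siSFPQ libraries held 155 FPKM in Hep3b, 69.3 in Huh1, 85.0 in Huh7, 73.0 in HepG2, 132 in HLE and 140 in SK-HEP1. The siCTL libraries held 79.3 FPKM in Hep3b, 52.8 in Huh1, 61.6 in Huh7, 44.9 in HepG2, 80.3 in HLE and 84.6 in SK-HEP1. After knockdown Hep3b, HLE, SK-HEP1 and, barely, Huh7 stand above every control library, while Huh1 and HepG2 lie within the control range. The change was 0.66 (SE 0.09, 6 of 6 lines higher, limma adjusted p = 0.00379), 1.58 times the control level.

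With TGF-beta HNRNPH3 rose as well. The siSFPQ + TGF-beta libraries held 137, 68.2, 90.5, 60.4, 124 and 136 FPKM in Hep3b, Huh1 and Huh7 and then HepG2, HLE and SK-HEP1, against 85.4, 53.1, 61.6, 44.4, 78.4 and 80.5 in the siCTL + TGF-beta libraries. The same 4 lines lie above the control range. The change was 0.57 (SE 0.07, 6 of 6 lines higher, limma adjusted p = 0.00258). The call held without any one line in both comparisons, with changes between 0.59 and 0.71 without TGF-beta and between 0.54 and 0.61 with it.

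RBM7, the NEXT subunit, rose at a lower level of expression. The siSFPQ libraries held 24.1 FPKM in Hep3b, 15.8 in Huh1, 11.3 in Huh7, 28.1 in HepG2, 34.1 in HLE and 25.3 in SK-HEP1, against 16.3, 10.4, 9.10, 20.2, 18.1 and 14.0 in the siCTL libraries. The siSFPQ + TGF-beta libraries held 24.6, 18.7, 11.5, 31.3, 28.97 and 24.2 FPKM in those lines, against 19.7, 12.1, 11.0, 22.4, 17.9 and 13.1 in the siCTL + TGF-beta libraries. Huh7 is the lowest line in all 4 groups and moved least in both comparisons. The untreated cells changed by 0.59 (SE 0.10, adjusted p = 0.00594) and the TGF-beta-treated cells by 0.49 (SE 0.11, adjusted p = 0.0118) by limma, with 6 of 6 lines higher in each, and neither call was lost when any one line was left out.

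Of the cleavage factor Im subunits, neither was called without TGF-beta and CPSF6 alone was called with it. CPSF6, which carries the RS-like domain that recruits the cleavage machinery, had 10.96 to 20.5 FPKM (median 19.2) in siSFPQ libraries, against 13.7 to 24.4 (median 21.1) in siCTL libraries. In siSFPQ + TGF-beta libraries it had 11.6 to 19.3 FPKM (median 17.2), against 12.9 to 23.5 (median 22.1) in siCTL + TGF-beta libraries. HepG2 is the lowest line throughout, and the groups overlap. The change was -0.21 without TGF-beta (SE 0.09, 5 of 6 lines lower, limma adjusted p = 0.111) and -0.26 with it (SE 0.08, 6 of 6 lower, adjusted p = 0.0406). The call with TGF-beta was lost when any one of the 6 lines was left out, where the change lay between -0.28 and -0.21 (adjusted p 0.0610 to 0.1005). It was also lost after scaling the libraries to a common median (-0.15, adjusted p = 0.15) and after removal of each library's GC trend (-0.10, adjusted p = 0.324; -0.09, adjusted p = 0.470 without TGF-beta).

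NUDT21, the UGUA-binding subunit, had 19.96 to 63.4 FPKM (median 33.3) in siSFPQ libraries, against 20.9 to 78.3 (median 42.4) in siCTL libraries. It had 18.8 to 56.1 FPKM (median 33.0) in siSFPQ + TGF-beta libraries, against 18.1 to 74.4 (median 38.9) in siCTL + TGF-beta libraries. Huh1 is the lowest and SK-HEP1 the highest line in all 4 groups. The changes, -0.21 without TGF-beta (95% interval -0.40 to -0.01) and -0.24 with it (-0.45 to -0.03), did not pass the adjusted test (limma adjusted p = 0.120 and 0.0823), and after removal of the GC trend they were -0.09 and -0.08 (adjusted p = 0.440 and 0.428). The NUDT21 level per CPSF6 level averaged 2.28 ± 1.18 in siSFPQ and 2.19 ± 0.89 in siCTL libraries (SD, n = 6 each). By line, however, this ratio was higher after knockdown in only 1 of 6 lines, HepG2 (4.16 against 3.28). With TGF-beta it was higher in 3 of 6 lines, and the differences were not tested.

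RBM14, HNRNPK and DAZAP1 were not called in either comparison. RBM14 had 11.7 to 41.8 FPKM (median 19.0) in siSFPQ libraries, against 12.8 to 35.0 (median 21.7) in siCTL libraries. Its changes of -0.01 without TGF-beta and 0.06 with it (SE 0.13 and 0.11) had no settled sign: scaling, GC correction and leaving out single lines each turned one of them. Hep3b and SK-HEP1 held more RBM14 in siSFPQ than in siCTL libraries, and HLE less. RBM14 also shares exons with the read-through row RBM14-RBM4, which held 27.4 to 64.7 FPKM and more than RBM14 itself in all 24 libraries, so how the authors' quantification split these reads is uncertain. That row was not called either (0.13, SE 0.10, adjusted p = 0.335 without TGF-beta).

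HNRNPK, a poly(C)-binding hnRNP and the most abundant member, had 191 to 277 FPKM (median 244) in siSFPQ libraries, against 193 to 289 (median 271) in siCTL libraries. Huh7 stands apart, with 191 FPKM in its siSFPQ library and 268 in its siCTL library. Untreated cells changed by -0.13 (SE 0.09, limma adjusted p = 0.309) and TGF-beta-treated cells by -0.09 (SE 0.06, adjusted p = 0.289), but the sign turned after GC correction in both and after scaling in the TGF-beta-treated cells. The pseudogene row HNRNPKP3 stayed at or below 0.156 FPKM.

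DAZAP1, an RNA-binding protein named for its interaction with DAZ and known in splicing and translation, had 55.3 to 93.5 FPKM (median 74.3) in siSFPQ libraries, against 78.1 to 91.7 (median 86.9) in siCTL libraries. With TGF-beta it had 65.8 to 83.3 FPKM (median 76.7) in siSFPQ + TGF-beta libraries, against 76.8 to 90.7 (median 84.0) in siCTL + TGF-beta libraries. HepG2 was higher and the other 5 lines lower after knockdown in both comparisons, with Huh7 lowest relative to its control without TGF-beta and HLE with it. The SD over lines was 12.74 FPKM in siSFPQ and 6.215 in siCTL libraries. With TGF-beta these SDs were closer, 7.063 and 5.985 FPKM. The highest and lowest siSFPQ libraries, HepG2 and Huh7, had relative depths of 0.4 and 0.598, and whether depth bears on the spread was not tested. The changes were -0.22 (SE 0.11, limma adjusted p = 0.198) and -0.16 (SE 0.08, adjusted p = 0.131).

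**Figure D2:**
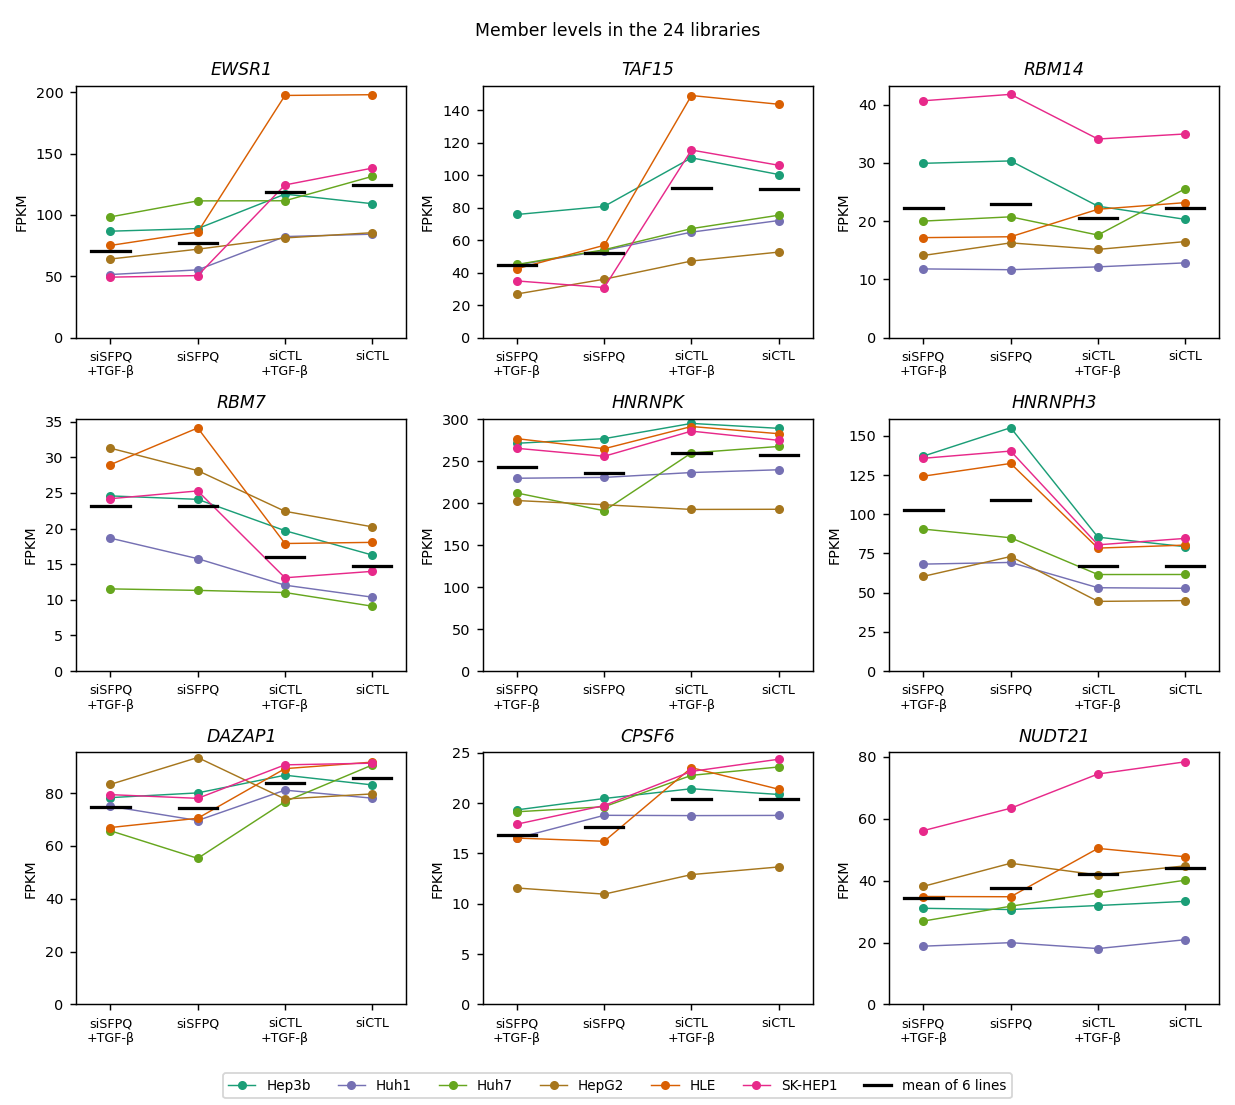
FPKM of each member in the 24 libraries, with a linear axis from 0, one colour per line and black bars for the mean of 6 lines in each group. EWSR1 and TAF15 are highest in the siCTL groups, steeply so in HLE and SK-HEP1, RBM7 and HNRNPH3 are highest in the siSFPQ groups, and NUDT21 and RBM14 separate by line more than by group.

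The size of the knockdown change differed between lines for 8 of the 9 members. A moderated F test of the line by siRNA terms over 24 libraries, in which the pair without and the pair with TGF-beta give a line's 2 estimates, called 38.2% of all genes tested, so a call here was common. EWSR1 gave F = 43.4 (limma adjusted p = 5.345e-06) and TAF15 F = 18.6 (adjusted p = 0.000177). RBM14 (6.89), HNRNPK (6.5), DAZAP1 (5.84), NUDT21 (5.81), RBM7 (4.72) and HNRNPH3 (3.99) had smaller F values, with limma adjusted p between 0.00884 and 0.0469, and CPSF6 was not called (2.97, adjusted p = 0.0981). The labels do not say that the libraries of a line came from separate cultures, so these p-values measure the spread within a line.

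EWSR1 and TAF15 fell most in HLE and SK-HEP1, the lines in which SFPQ was reduced most. EWSR1 kept 43.4% of its siCTL level in HLE and 36.6% in SK-HEP1, 65.5% in Huh1, and 81.4%, 84.8% and 84.3% in Hep3b, Huh7 and HepG2. TAF15 kept 39.5% in HLE and 29% in SK-HEP1, and 80.5%, 74.4%, 71.8% and 68.3% in Hep3b, Huh1, Huh7 and HepG2. SFPQ itself kept 9.5% in HLE and 13.1% in SK-HEP1, against 24.2% in Hep3b, 26.0% in Huh7, 40.4% in Huh1 and 45.2% in HepG2. Outside HLE and SK-HEP1 the order did not carry over: Huh1, with more SFPQ left than Hep3b and Huh7, lost more EWSR1 than either. HLE and SK-HEP1 also have low hepatocyte marker levels, as do the libraries labelled Hep3b, and whether the depth of knockdown or the kind of line goes with the larger falls was not tested.

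The pattern of lines recurred in the TGF-beta-treated libraries, which are separate libraries of the same lines. EWSR1 kept 38.0% in HLE and 39.6% in SK-HEP1, against 62.4% to 88.2% in the other 4 lines. TAF15 kept 28.4% in HLE and 30.2% in SK-HEP1, against 57.0% to 68.9% in the others. SFPQ kept 10.7% and 16.4% in HLE and SK-HEP1, against 22.9% to 44.8% elsewhere. In both comparisons EWSR1 and TAF15 left in HLE and SK-HEP1 were below that of every other line.

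RBM7 and HNRNPH3 rose by amounts that varied with the line. RBM7 reached 188.9% of its siCTL level in HLE and 180.7% in SK-HEP1, with 124.4% in Huh7 at the low end, and with TGF-beta it ranged from 104.6% in Huh7 to 184.8% in SK-HEP1. HNRNPH3 reached 195.6% in Hep3b without TGF-beta and 168.5% in SK-HEP1 with it, and its lowest values were 131.3% and 128.4%, both in Huh1. The F test calls of RBM7 and HNRNPH3 were lost without some single lines, RBM7 without Huh7 (adjusted p = 0.142) or SK-HEP1 (0.0925), and HNRNPH3 without Huh1 (0.226), Hep3b (0.103), SK-HEP1 (0.104) or HLE (0.0582). Likewise the HNRNPK call was lost without Huh7 (0.356), DAZAP1 without HepG2 (0.135) and RBM14 without Hep3b (0.0715) or HLE (0.0588). The NUDT21 call was lost after scaling (0.0643) and after GC correction (0.273). The HNRNPH3 call was also lost at pseudocounts of 0.1 (0.0515) and 0.01 (0.0519), with no filter (0.0512) and without trended and robust shrinkage (0.0693). With Huh7 and HepG2 both left out, the calls of RBM7 (0.181), HNRNPK (0.931) and DAZAP1 (0.0909) were lost.

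**Figure D3:**
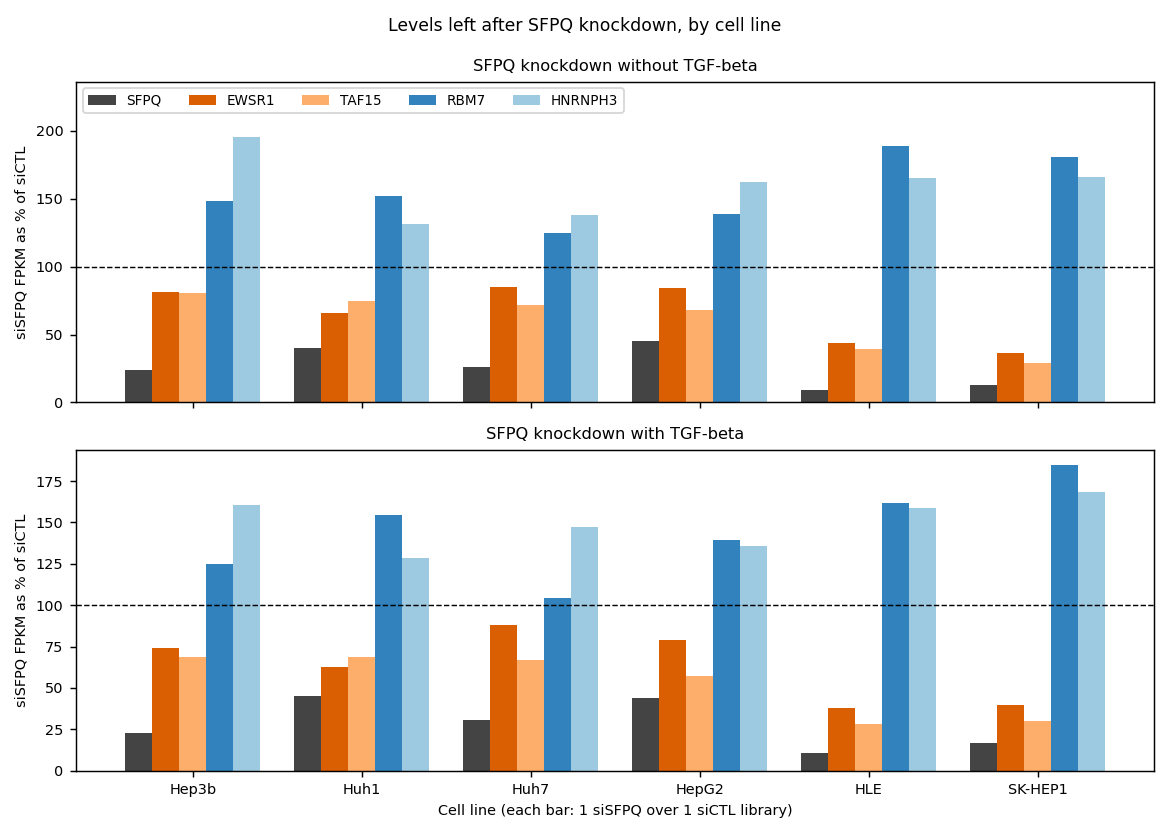
FPKM in the siSFPQ library as a percent of the siCTL library of the same line, without TGF-beta (top) and with it (bottom), each bar from 1 pair of libraries, with bars starting at 0 and a dashed line at 100%. In HLE and SK-HEP1 the SFPQ, EWSR1 and TAF15 bars are lower than in the other 4 lines, while RBM7 and HNRNPH3 lie above 100% in all 6 lines.

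TGF-beta changed no member by the adjusted test, in either siRNA background. In siSFPQ cells 5.16% of all genes tested were called, against 0 of 9 members by limma. An unadjusted limma p under 0.05 was reached by 2 of 9 members, EWSR1 and TAF15, and by 3353 of the 11884 genes tested. In siCTL cells 0.0987% of genes were called, against 0 of 9 members. There 0 members and 1909 of the 12164 genes tested had an unadjusted p under 0.05. The members' median changes, -0.05 in siSFPQ and -0.03 in siCTL cells, were close to those over all genes tested, -0.06 and -0.03 (limma, log2 scale).

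EWSR1 was lower with TGF-beta in all 6 siSFPQ lines, with differences from -0.19 to -0.03 on the log2 scale. Its mean change was -0.12 (SE 0.05, 95% interval -0.23 to -0.01, limma adjusted p = 0.154), and the exact sign-flip test, unadjusted, gave the smallest p that 6 lines allow. That change was -0.064 after scaling the libraries to a common median (limma adjusted p = 0.407) and -0.056 after GC trend removal (adjusted p = 0.449). In siCTL cells the EWSR1 change as deposited was -0.07 (SE 0.05, 5 of 6 lines lower, adjusted p = 0.526). TAF15 was lower with TGF-beta in 5 of 6 siSFPQ lines, with -0.42 in HLE, and higher in SK-HEP1 (0.17). Its change was -0.21 in siSFPQ cells (SE 0.08, 95% interval -0.40 to -0.02, adjusted p = 0.145) and -0.03 in siCTL cells (SE 0.06, adjusted p = 0.852).

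RBM7 had the largest TGF-beta estimate in siCTL cells, 0.13 (SE 0.06, 4 of 6 lines higher, limma adjusted p = 0.349). For the other members the 95% intervals of the TGF-beta change in siCTL cells lay between -0.29 and 0.10. In siSFPQ cells the intervals of the members other than TAF15 and EWSR1 lay between -0.25 and 0.18.

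**Figure D4:**
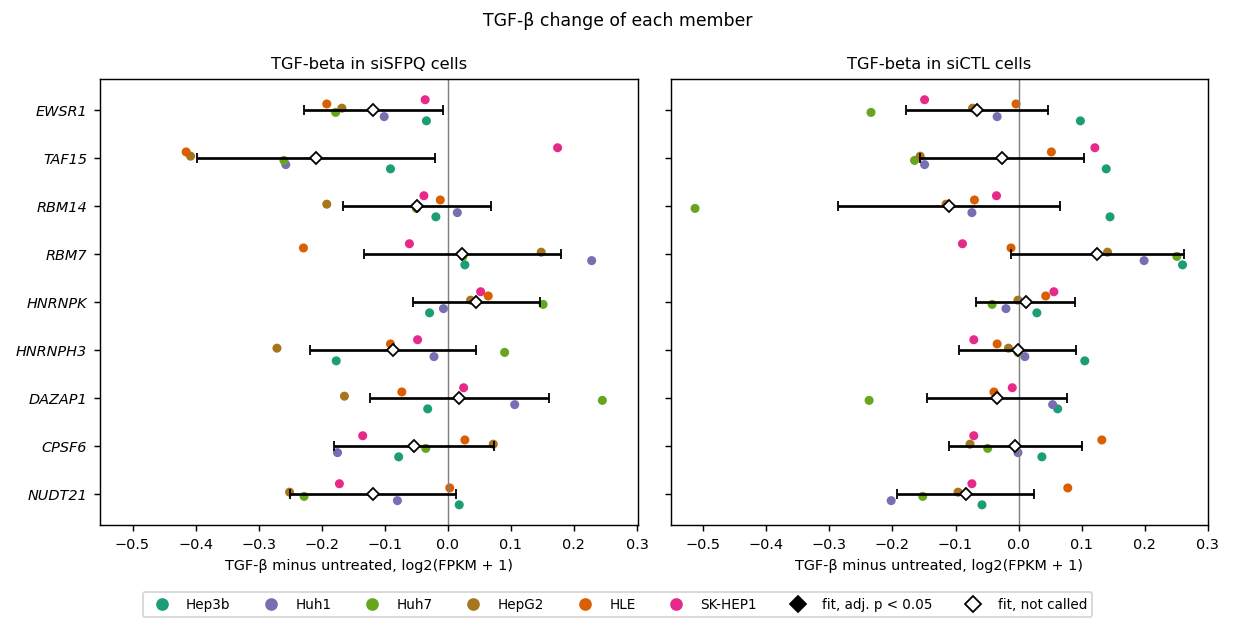
Change with TGF-beta of each member, treated minus untreated on the log2(FPKM + 1) scale, in siSFPQ cells (left) and siCTL cells (right). Dots are the 6 lines and diamonds the limma estimate with its 95% interval; all diamonds are open, as no member passed the adjusted test, and the estimates lie between -0.21 and 0.13.

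The knockdown change did not differ detectably between treated and untreated cells for any member. The interaction test over 24 libraries called 0.252% of all genes, and 0 of 9 members by limma. An unadjusted p under 0.05 was reached by 1 of 9 members, TAF15, and by 1688 of the 13494 genes tested. TAF15 had an interaction of -0.18, a more negative knockdown change with TGF-beta than without it (SE 0.07, 95% interval -0.34 to -0.03, limma adjusted p = 0.333). EWSR1 had an interaction of -0.05 (SE 0.06, 95% interval -0.18 to 0.07, adjusted p = 0.742). The intervals of the other 7 members lay between -0.25 and 0.24. The called changes of EWSR1, TAF15, RBM7 and HNRNPH3 were measured in 12 separate libraries in each knockdown comparison. Both comparisons use the same lines, so they are not independent replicates.

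For 6 of the 9 members the line held more of the variation than either treatment. The cell line held 91.4% of the sum of squares of NUDT21 over the 24 libraries, 90.6% of that of RBM14, 80.4% for HNRNPK and 77.9% for CPSF6. The siRNA held a larger share than the line in EWSR1 (42.3% siRNA, 36.7% line), TAF15 (45.7% and 35.0%) and DAZAP1 (29.4% and 24.7%). The line by siRNA share was largest in DAZAP1 (34.2%), EWSR1 (19.5%) and TAF15 (16.4%). TGF-beta held at most 0.8% in any member. These shares are descriptions of log2(FPKM + 1) values, with no test.

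**Figure D5:**
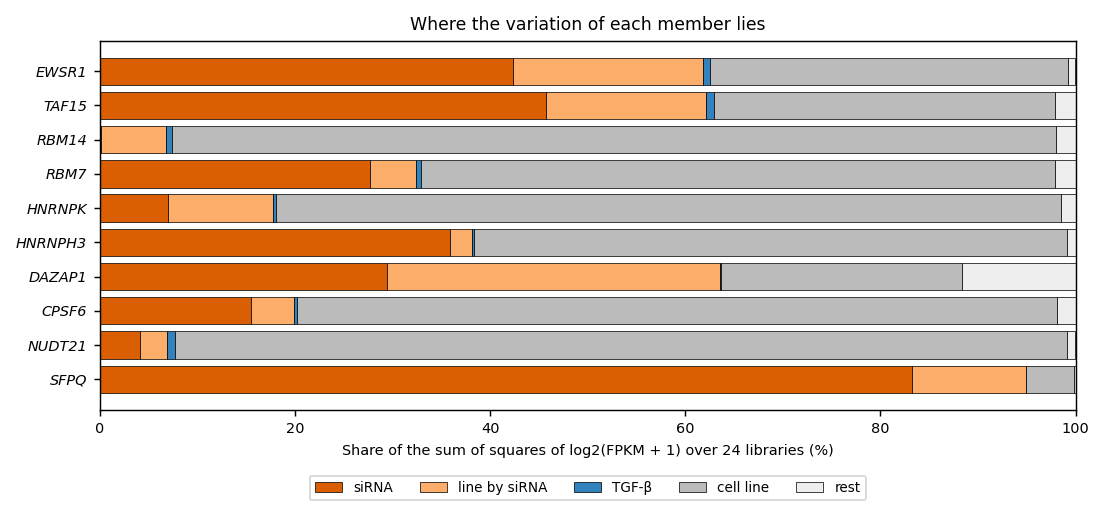
Share of the sum of squares of log2(FPKM + 1) over 24 libraries that lies with siRNA, line by siRNA, TGF-beta, cell line and the rest, for the 9 members and SFPQ. The line (grey) takes 90.6% or more in RBM14 and NUDT21, and siRNA with line by siRNA takes more than the line in EWSR1, TAF15 and DAZAP1.

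Under control siRNA the lines were ranked by the mean of their siCTL + TGF-beta and siCTL libraries. TAF15, HNRNPK, HNRNPH3 and DAZAP1 shared their lower end, with HepG2, Huh1 and Huh7 lowest in that order by mean. For DAZAP1 the neighbours among these lines overlapped, and Huh7 overlapped Hep3b above it, so that order is not resolved. NUDT21 had the widest range, 3.92-fold, with 19.5 FPKM in Huh1, 32.6 in Hep3b, 38.1 in Huh7, 43.3 in HepG2, 49.1 in HLE and 76.4 in SK-HEP1, and no neighbours in this order overlapped. TAF15 ranged 2.93-fold, with HepG2 lowest (49.9 FPKM), Huh1 and Huh7 overlapping next (68.6 and 71.3), Hep3b and SK-HEP1 overlapping (106 and 111) and HLE highest (147). EWSR1 ranged 2.37-fold, with Huh1 and HepG2 overlapping at the low end (83.4 each), Hep3b, Huh7 and SK-HEP1 overlapping in turn (113, 122 and 131) and HLE apart at the top (198). HLE held the most of EWSR1 and TAF15, and SFPQ was also highest there under control siRNA.

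Of the other members, RBM14 ranged 2.77-fold, with SK-HEP1 highest (34.5 FPKM), apart from HLE, Huh7 and Hep3b, which overlapped in turn, and Huh1 lowest (12.5). RBM7 ranged 2.12-fold, with HepG2 highest (21.3 FPKM) and Huh7 and Huh1 overlapping at the low end (10.1 and 11.2). HNRNPH3 ranged 1.85-fold, with HepG2, Huh1 and Huh7 separate in that order (44.7, 53.0 and 61.6 FPKM) and HLE, Hep3b and SK-HEP1 overlapping above them. CPSF6 ranged 1.79-fold and HNRNPK 1.52-fold, both with HepG2 lowest and apart from the rest. DAZAP1 was the most even, 1.16-fold from HepG2 (78.7 FPKM) to SK-HEP1 (91.0), with 4 of 5 neighbouring pairs overlapping. Means over the 24 libraries, compared per length, ran from 18.8 FPKM for CPSF6 and 19.3 for RBM7 through 22.02 for RBM14, 39.6 for NUDT21, 70.3 for TAF15, 79.7 for DAZAP1, 86.6 for HNRNPH3 and 97.95 for EWSR1 to 249.5 for HNRNPK.

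The HNRNPH3 level per HNRNPK level averaged 0.45 ± 0.10 in siSFPQ and 0.26 ± 0.04 in siCTL libraries, and 0.41 ± 0.10 in siSFPQ + TGF-beta and 0.26 ± 0.03 in siCTL + TGF-beta libraries (SD, n = 6 each). The EWSR1 level per TAF15 level averaged 1.56 ± 0.44 in siSFPQ and 1.38 ± 0.26 in siCTL libraries, and 1.67 ± 0.53 in siSFPQ + TGF-beta and 1.35 ± 0.28 in siCTL + TGF-beta libraries. In both comparisons this ratio was higher after knockdown in 5 of 6 lines and lower in Huh1, and the difference was not tested.

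Over the 24 libraries, after the mean of each line was taken out, EWSR1 and TAF15 correlated with Pearson r = 0.971, CPSF6 and NUDT21 with 0.855 and RBM7 and HNRNPH3 with 0.881. CPSF6 also correlated with TAF15 (0.896) and EWSR1 (0.867), and NUDT21 with TAF15 (0.836). EWSR1 ran against RBM7 (-0.923) and HNRNPH3 (-0.815). SFPQ itself correlated with TAF15 (0.928), EWSR1 (0.919) and CPSF6 (0.899), and ran against HNRNPH3 (-0.947) and RBM7 (-0.916). RBM14 followed no other member, with r between -0.036 and 0.263. These r values describe libraries that share the same siRNA groups and depth and are not tests. Among 12445 genes searched, those nearest to EWSR1 by this measure were MED9 and CCAR1 (0.976 each), and those nearest to TAF15 were CDK5RAP2 and CCAR1 (0.983 each). The nearest to RBM7 were TDG (0.951) and ZDHHC16 (0.95), to HNRNPH3 GANAB (0.976) and PCNXL3 (0.968), to CPSF6 TMEM106C (0.963) and SAFB (0.952), to NUDT21 MPHOSPH9 (0.957) and NUP155 (0.956), to HNRNPK IKBIP (0.867), to DAZAP1 C11orf84 (0.887) and to RBM14 RAD18 (0.857).

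NEAT1, the RNA on which the bodies form, was measured at the gene level, which does not tell its transcript forms apart. In this polyadenylated RNA the gene-level value of NEAT1 was higher after knockdown. It averaged 316 ± 210 FPKM in siSFPQ and 172 ± 106 in siCTL libraries (SD, n = 6 each) and rose in 6 of 6 lines (0.82, SE 0.09, limma adjusted p = 0.00233), and it was also called higher with TGF-beta (0.67, SE 0.15, adjusted p = 0.0113). PSPC1 was called higher with TGF-beta (0.51, SE 0.13, adjusted p = 0.0173) and not without it (0.36, SE 0.13, adjusted p = 0.0830), and in HLE it did not exceed 0.346 FPKM in any library. NONO was not called (0.02, SE 0.09 and -0.02, SE 0.07). Of 26 other paraspeckle protein genes tested, 3 were called higher and 2 lower without TGF-beta (6.69% of all genes higher and 15.0% lower by limma), and 1 higher and 4 lower with it (8.47% higher and 21.8% lower). HNRNPA1, a splicing regulator with near-identical copies that make the split of its reads uncertain, rose in both comparisons (0.35, SE 0.11, limma adjusted p = 0.0416 and 0.37, SE 0.08, adjusted p = 0.0102). BCL6, a transcriptional repressor, rose without TGF-beta (0.52, SE 0.14, limma adjusted p = 0.0305) and was not called with it (0.46, SE 0.16, adjusted p = 0.0520). UBAP2L likewise rose without TGF-beta (0.28, SE 0.09, limma adjusted p = 0.0412) and was not called with it (0.20, SE 0.09, adjusted p = 0.102). FIGN fell in both (-0.77, SE 0.23, limma adjusted p = 0.0395 and -0.75, SE 0.21, adjusted p = 0.0255), while FAM98A (-0.26, SE 0.08) and RBMX (-0.26, SE 0.08) were called lower with TGF-beta. HNRNPR fell (-0.33, SE 0.10, limma adjusted p = 0.0415) without TGF-beta and with it (-0.38, SE 0.08, adjusted p = 0.0104). The medians over the 26 genes were -0.09 and -0.08, near those of all genes.

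Of 18 cleavage and polyadenylation genes tested besides the members, 2 were called lower and 0 higher without TGF-beta (limma; 15.0% of all genes lower), and 4 lower and 1 higher with it (21.8% and 8.47% of all genes). PABPN1, the nuclear poly(A)-binding protein, fell to 17.8 ± 9.30 FPKM in siSFPQ cells, against 28.4 ± 9.28 in siCTL cells (-0.73, SE 0.14, limma adjusted p = 0.00873), and also with TGF-beta (-0.71, SE 0.14). WDR33, which reads the AAUAAA signal, fell in both (-0.40, SE 0.12 and -0.43, SE 0.12), and CSTF2 (-0.37, SE 0.09) and CPSF2 (-0.34, SE 0.10) were called lower with TGF-beta. CPSF7, the other large subunit of cleavage factor Im, was not called (-0.19, SE 0.09, adjusted p = 0.167 and -0.25, SE 0.09, adjusted p = 0.0576).

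The NEXT partners of RBM7 were not called. Of 17 NEXT and nuclear exosome genes tested, 1 was called higher and 5 lower without TGF-beta (6.69% and 15.0% of all genes by limma), and 1 higher and 4 lower with it (8.47% and 21.8%). The scaffold ZCCHC8 (0.08, SE 0.10) and the helicase SKIV2L2, also known as MTR4 (0.03, SE 0.10), were not called (limma adjusted p = 0.566 and 0.856). ZCCHC7, the zinc-knuckle protein of the TRAMP complex, fell to 3.09 ± 2.50 FPKM in siSFPQ cells, against 8.41 ± 4.36 in siCTL cells (-1.35, SE 0.17, limma adjusted p = 0.00294, 6 of 6 lines), and MPHOSPH6, an exosome cofactor, fell by 0.84 (SE 0.19, adjusted p = 0.0160). The exosome core subunits EXOSC8 (-0.41, SE 0.12), EXOSC9 (-0.43, SE 0.11) and EXOSC6 (-0.52, SE 0.14) fell as well, though EXOSC6 was not called with TGF-beta (-0.09, SE 0.14, limma adjusted p = 0.636). PAPD5, the TRAMP poly(A) polymerase, rose by 0.40 (SE 0.10, adjusted p = 0.0219).

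Among close relatives of HNRNPK and HNRNPH3, 1 in each family was called. Over all genes tested, limma called 6.69% higher and 15.0% lower without TGF-beta, and 8.47% and 21.8% with it. Of the 3 PCBP genes tested, PCBP4 rose (0.57, SE 0.08, limma adjusted p = 0.00403), and PCBP1 (-0.12, SE 0.07) and PCBP2 (0.19, SE 0.07) were not called. Of the 4 relatives of HNRNPH3 that carry the same kind of RNA-binding domain, GRSF1 rose (0.35, SE 0.09, limma adjusted p = 0.0241), while HNRNPH1 (-0.11, SE 0.09), HNRNPH2 (0.02, SE 0.10) and HNRNPF (0.03, SE 0.08) were not called. PCBP4 and GRSF1 were called with TGF-beta too (0.51 and 0.37).

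The split of calls over all genes depended on the scaling. As deposited, 804 genes were called higher and 1804 lower without TGF-beta. After GC trend removal these counts were 1283 and 1158, and after median scaling 1117 and 1415. With TGF-beta 1018 were called higher and 2621 lower as deposited, 1697 and 1399 after GC trend removal, and 1558 and 1747 after scaling. For TGF-beta in siSFPQ cells the counts were 268 higher and 345 lower as deposited, 299 and 184 after GC trend removal, and 295 and 125 after scaling. GC trend removal moved the median knockdown change of all genes by 0.1 without and 0.127 with TGF-beta. The changes of EWSR1 (-0.52 and -0.54), TAF15 (-0.69 and -0.85), RBM7 (0.71 and 0.65) and HNRNPH3 (0.80 and 0.75), without and with TGF-beta, kept their sign and their call after GC trend removal.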

How the data were processed

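Polyadenylated RNA of 24 libraries was sequenced, 1 per cell line and group. The submitters' processing notes name the genome build hg19 (GRCh37), the quantifier Cufflinks 2.2.1 and the aligner TopHat2 2.1.1, and the gene annotation is not given in the sources used here. Though the table is named as raw counts, the deposited values are FPKM made by the authors, with 0.019% whole numbers among the values above 0, so no count test was run and absolute depth is unknown. The 1626 rows of short RNAs were dropped from the 23284, among them MIR4461, which took 33.6% to 51.6% of a library's sum. The remaining values kept the authors' scaling, and 2 empty columns were not used. Values under 1e-06 were set to 0. Relative depth was estimated from low values with an assumed fragment length of 180 bases.

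Changes of log2(FPKM + 1) were tested with limma (version 3.58.1, R 4.3.3) for genes of at least 1 FPKM in at least 6 of the libraries compared, with the line as a block, shrinkage that was trended and robust, and p-values adjusted by Benjamini-Hochberg across every gene in the fit. The lines pair the libraries: deviations from the group means correlated at 0.874 to 0.978 within a line and at most 0.41 between libraries of other lines and groups. The interaction fit let each line have its own siRNA and TGF-beta effects. The exact sign-flip test ran over the 6 lines. All 9 members are named throughout; of the related lists, the text names up to 4 genes with the smallest p in a knockdown comparison, direct partners and paralogs, and some further called genes chosen after their values were seen; 1 gene that this rule names is not reported here. The members and lists were chosen with earlier results of these data known. Alternatives changed the pseudocount, filter, scaling, GC trend, short RNAs, shrinkage, library weights, block and lines used.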

Additional observations from a re-analysis of the deposited data

Results flagged for a closer look

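Among 72 sets of 6 values, 6 held a value apart from the others, where chance gives about 1 in 20. EWSR1 stood apart in the HLE siCTL + TGF-beta library (197.5 FPKM), TAF15 in the Hep3b siSFPQ + TGF-beta library (75.86 FPKM) and CPSF6, on the low side, in the HepG2 siSFPQ + TGF-beta library (11.57 FPKM). On the log2 scale, the knockdown change of HNRNPK without TGF-beta stood apart in Huh7 (-0.485), the TGF-beta change of DAZAP1 in siCTL cells also in Huh7 (-0.237), and the TGF-beta change of RBM14 in siSFPQ cells in HepG2 (-0.192). Relative depth was 0.598 in the Huh7 and 0.4 in the HepG2 siSFPQ library, among the lowest. It was 1.179 in the HepG2 siSFPQ + TGF-beta library, and 0.76 and 0.777 in the Huh7 siCTL and siCTL + TGF-beta libraries. Whether depth bears on these values was not tested.

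The knockdown change differed between lines by the moderated F test of limma for 8 members: EWSR1 (F = 43.37), TAF15 (18.64), RBM14 (6.89), HNRNPK (6.5), DAZAP1 (5.84), NUDT21 (5.81), RBM7 (4.72) and HNRNPH3 (3.99). The same test called 38.2% of all genes. Only EWSR1 and TAF15 kept this call in every alternative setting.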

How the results depend on the processing

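With the line block left out, 0 genes and 0 members were called by limma in either knockdown comparison, while 633 and 734 genes had an unadjusted p under 0.05; the TGF-beta and interaction fits also called 0, as did the interaction with an additive line term. Without TGF-beta, the 2608 genes called after knockdown became 1152 with no filter (2 members) and 987 without Huh7 and HepG2; with TGF-beta, 3639 became 2417 and 1684. The 613 genes called for TGF-beta in siSFPQ cells became 15 with no filter, 341 with short RNAs kept and 66 without Huh7 and HepG2. The 12 in siCTL cells became 0 with no filter, 1 with short RNAs kept, 1 with plain shrinkage, 35 with library weights and 4 without Huh7 and HepG2. The 34 of the interaction became 13 and 11 at pseudocounts of 0.1 and 0.01, 4 with no filter, 20 after GC correction, 18 with short RNAs kept, 15 with plain shrinkage and 54 with weights. Without Huh7 and HepG2 the line test called 5 members and 4789 of the 12345 genes tested. Leaving out each line in turn gave 1383 to 2205 genes and 3 to 4 members called without TGF-beta (1383 without HLE, 1396 without SK-HEP1, 1660 without Huh7), 2380 (without SK-HEP1) to 2989 with it, 34 to 421 for TGF-beta in siSFPQ and 0 to 25 in siCTL cells, 8 to 29 for the interaction, and 2874 to 5145 genes and 6 to 7 members for the line test.

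Signs turned only for estimates that were not called, and the HNRNPK knockdown changes were the largest of these as deposited. The RBM14 knockdown change without TGF-beta became 0.069 after scaling, 0.032 after GC correction, 0.022 with weights and 0.069 without Huh7 and HepG2, and ranged from -0.117 to 0.074 over left-out lines, and from -0.011 to 0.136 with TGF-beta. That of HNRNPK went from -0.127 (SE 0.086) to 0.017 after GC correction without TGF-beta. With TGF-beta it went from -0.093 (SE 0.064) to 0.015 after scaling and 0.085 after GC correction. In siSFPQ cells the TGF-beta change became 0.002 for RBM14 after scaling, 0.005 for CPSF6 after GC correction and -0.009 for RBM7 without Huh7 and HepG2; over left-out lines it ranged from -0.018 to 0.073 for RBM7 and from -0.028 to 0.054 for DAZAP1. In siCTL cells it became 0.022 and 0.023 for HNRNPH3 and 0.018 and 0.014 for CPSF6 after scaling and GC correction, and 0.041 for TAF15, 0.002 for HNRNPH3, 0.017 for DAZAP1 and 0.024 for CPSF6 without Huh7 and HepG2; over left-out lines the ranges were -0.059 to 0.002, -0.023 to 0.013, -0.053 to 0.006 and -0.032 to 0.009 in that order of genes. The interaction became -0.005 for RBM14, -0.007 for HNRNPK, -0.01 for DAZAP1 and 0.006 for NUDT21 without Huh7 and HepG2, and ranged from -0.019 to 0.106 for RBM14 and from -0.034 to 0.088 for DAZAP1. With no filter, EWSR1 (adjusted p = 0.0667) and TAF15 (0.0561) lost their calls without TGF-beta. The cause of these shifts was not tested.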
